A study of Mus musculus with 11 samples.

Results

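Astrocytes keep the fluid around neurons usable. They take up potassium and glutamate released by active neurons, move water and bicarbonate across their membranes, turn glutamate into glutamine, and pass ions and metabolites to each other through gap junctions. 9 genes of this machinery are described here in the cerebral cortex of an amyloid mouse model with and without Abi3. They are the inward rectifier potassium channels Kcnj10 and Kcnj16, the water channel Aqp4, the glutamate transporters Slc1a2 and Slc1a3, glutamine synthetase (Glul), the connexins Gja1 and Gjb6, and the sodium bicarbonate cotransporter Slc4a4. They were chosen by name for these functions from 53700 gene identifiers in the count tables, and with knowledge that Kcnj10 was lower in the knockout animals. The difference between genotypes in these 9 genes is therefore a description and carries no test of its own.

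Reads were counted in the right cortex of 11 female 5xFAD mice aged 8 months, 6 with both copies of Abi3 (Abi3_WT) and 5 without it (Abi3_KO). All 11 animals carried the 5xFAD transgenes, which are driven in neurons by the Thy1 promoter and cause amyloid to be deposited, and no animal without them was measured. They came from a cross of 5xFAD mice on a mixed B6 and SJL background with a C57BL/6N line in which the Abi3 locus is deleted, and all were heterozygous for an SJL variant of Trem2, per the study's methods. The labels give the strain only as C57BL/6. The deleted gene Abi3, a component of an actin-regulating complex that is expressed in microglia, had 7.24 to 37.7 normalized counts (reads divided by the library's size factor) in Abi3_WT and 0 to 2.02 in Abi3_KO animals.

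Each library held 3202310 to 5501958 reads in genes. Reads aligned to a single place but assigned to no gene are called reads outside genes below. Counting was by strand, so they can include reads antisense to a gene, and reads in introns if only exons were counted. They amounted to 59.3 to 68.8 per 100 reads in genes in Abi3_WT and 49.8 to 62.5 in Abi3_KO libraries. The means, 65.9 and 54.0, differed (p = 0.00866 by a two-sided exact permutation test, adjusted p = 0.0173 over 2 library measures). The number of reads in genes did not pass the same exact test (adjusted p = 0.13). The genotypes met in this measure at Abi3_WT replicate 3 (59.3) and Abi3_KO replicate 4 (62.5), and the values of these libraries are given beside the genes called below. In whole cortex, fewer astrocytes and less RNA per astrocyte cannot be told apart.

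All 24 genes of a list of astrocyte identity markers were counted, with a sum of 10977 to 14663 normalized counts in Abi3_WT and 11361 to 12930.0 in Abi3_KO animals, so the cells that the 9 genes stand for were present in every sample. QuantSeq reads the 3′ end of each transcript, so counts do not grow with transcript length and no length correction was made to set the genes beside each other. On the scale of normalized counts in Abi3_WT, Slc1a2 stood highest (9736 ± 517, SD, n = 6), followed by Glul (4183 ± 616), Slc1a3 (1592 ± 153), Slc4a4 (1032 ± 81.6), Gja1 (367 ± 69.1), Kcnj10 (359 ± 33.3), Aqp4 (357 ± 58.1), Kcnj16 (161 ± 48.0) and Gjb6 (133 ± 42.3). The ranges of Gja1, Kcnj10 and Aqp4 overlapped in Abi3_WT animals, as did those of Kcnj16 and Gjb6. No other neighbors in this order overlapped. In Abi3_KO animals the ranges of Gja1 and Kcnj10 no longer overlapped, and Gja1 had 1.43 times the counts of Kcnj10 where the ratio had been 1.02 in Abi3_WT. Slc1a2 and Glul together made up the bulk of the counts of the 9 genes, with 54.4% and 23.3% in Abi3_WT, while Kcnj10 made up 2.01% in Abi3_WT and 1.41% in Abi3_KO.

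RefSeq promoter windows around an annotated start were read for Kcnj10 and Slc4a4, the pair of genes that did not overlap between genotypes, and for Glul, a member on the same chromosome as Kcnj10 with nearly equal means. The windows hold 250 bases before and 50 after the start that RefSeq gives. For Slc4a4 the start of the gene in the annotation used for its coordinates below lies upstream of the window, outside it. They come from a table of build GRCm38.p6 and each matched a single place in GRCm39, the build of the count files. Capitals mark matches to CCAAT (the CCAAT box) and GGGCGG (the GC box) on either strand. The Kcnj10 window lies at chr1:172168527-172168826 on the plus strand, the Slc4a4 window at chr5:89034869-89035168 on the plus strand, and the Glul window at chr1:153775425-153775724 on the plus strand.
Kcnj10: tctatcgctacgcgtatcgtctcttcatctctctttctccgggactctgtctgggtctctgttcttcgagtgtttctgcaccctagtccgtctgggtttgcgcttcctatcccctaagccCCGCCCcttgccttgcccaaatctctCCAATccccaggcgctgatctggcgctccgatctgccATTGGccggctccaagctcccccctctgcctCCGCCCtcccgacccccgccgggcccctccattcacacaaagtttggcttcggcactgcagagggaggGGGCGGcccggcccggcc
Slc4a4: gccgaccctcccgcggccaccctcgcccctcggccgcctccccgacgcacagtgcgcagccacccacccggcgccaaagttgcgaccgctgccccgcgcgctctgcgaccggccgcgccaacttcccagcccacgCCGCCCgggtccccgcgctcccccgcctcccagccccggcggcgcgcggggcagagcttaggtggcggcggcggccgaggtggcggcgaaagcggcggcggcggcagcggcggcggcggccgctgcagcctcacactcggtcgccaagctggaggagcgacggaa
Glul: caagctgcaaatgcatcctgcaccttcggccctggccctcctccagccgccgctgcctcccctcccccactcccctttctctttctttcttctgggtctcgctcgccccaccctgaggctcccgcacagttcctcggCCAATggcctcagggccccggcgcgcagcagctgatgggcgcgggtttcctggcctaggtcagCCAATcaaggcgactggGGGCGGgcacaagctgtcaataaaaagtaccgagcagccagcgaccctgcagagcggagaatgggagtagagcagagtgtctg

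The Kcnj10 window has a GC content of 63.7% and held 2 CCAAT boxes, 104 and 67 bases before the start, and 3 GC boxes. The Slc4a4 window, the upstream of 2 listed for that gene, has a GC content of 80.0%, a higher share than in 99.0% of the 32851 windows in the table, and held 1 GC box and no CCAAT box. The Glul window has a GC content of 64.3% and held 2 CCAAT boxes and 1 GC box. These letters are common: 37.4% of all windows held CCAAT and 35.7% held GGGCGG. The TATA box TATAAA (13.6% of all windows), the STAT core TTCNNNGAA (8.3%), the SOX motif ACAATG (12.6%) and the palindrome of nuclear factor I (0.0365%) were searched on both strands as well and were not found in any of these 3 windows. Windows were listed for 8 of the 9 genes, 12 in all, and Aqp4 had none.

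Kcnj10 encodes the main potassium channel of astrocytes, which sets their resting potential and carries potassium into them, and is also used by oligodendrocytes. Its normalized count in Abi3_WT animals had a lowest value of 319.8, a median of 359.8 and a highest of 404. In Abi3_KO replicates 1 to 5 it was 258, 231, 294, 204 and 213. All 5 Abi3_KO animals lay below the lowest Abi3_WT animal, with a gap of 26.2 counts between the groups. Group means were 359 ± 33.3 (SD, n = 6) and 240.0 ± 36.3 (SD, n = 5), a difference of -33.2%, and the log2 fold change was -0.58 with a standard error of 0.114. Raw counts of 181 to 478 stood behind these values. Abi3_KO replicate 4, the knockout library whose reads outside genes fell within the Abi3_WT range, had the lowest Kcnj10 of all (204), and Abi3_WT replicate 3 had 359.

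Kcnj16 encodes a subunit that joins Kcnj10 in channels that respond to pH. The Abi3_WT animals ran from 83 to 212 normalized counts with a median of 182, and the Abi3_KO values were 128, 98, 113, 201 and 145. Every Abi3_KO value lay inside the Abi3_WT range. The log2 fold change was -0.23 ± 0.217 (SE), and the interval of about 95% on it ran from -0.654 to 0.195, so a fall of the size seen in Kcnj10 lay within it. Raw counts of Kcnj10 per count of Kcnj16 averaged 2.5 ± 1.13 (SD) over the 6 Abi3_WT and 1.89 ± 0.645 over the 5 Abi3_KO animals, with overlapping ranges.

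Slc4a4 encodes the cotransporter that carries sodium and bicarbonate across the astrocyte membrane and so links potassium-driven depolarization to pH. Abi3_WT animals had a lowest value of 948, a median of 1018 and a highest of 1131 normalized counts. The Abi3_KO values were 708, 727, 881, 931 and 757. All 5 again lay below all 6 Abi3_WT animals, here with a gap of 17.5 counts, and replicate 4 came closest to the Abi3_WT range, in which Abi3_WT replicate 3 stood at 1003. Means were 1032 ± 81.6 (SD, n = 6) and 800.7 ± 99.1 (SD, n = 5), a difference of -22.4%, with a log2 fold change of -0.37 ± 0.0857 (SE). Gene counts do not separate transcripts from the 2 start sites.

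In Aqp4, the water channel of astrocyte endfeet, Abi3_WT animals ranged from 264 to 419 normalized counts (median 351), and Abi3_KO animals had 292, 315, 392, 365 and 290.2. Every Abi3_KO value lay inside the Abi3_WT range. The log2 fold change was -0.11 ± 0.125 (SE, interval -0.357 to 0.134). Counts of Kcnj10 per count of Aqp4, genes whose products sit together in endfoot membranes, averaged 1.04 ± 0.237 (SD) over the 6 Abi3_WT and 0.733 ± 0.115 over the 5 Abi3_KO animals. This ratio lay below the lowest Abi3_WT value in 4 of 5 Abi3_KO animals.

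Of the glutamate genes, Slc1a2, which takes up most synaptic glutamate in the cortex, was the steadiest member. Its normalized count ran from 9066 to 10495 in Abi3_WT (median 9597) and was 9236, 9364, 9726, 9570.4 and 10235 in Abi3_KO animals, and the groups overlapped throughout. Its log2 fold change was -0.02 ± 0.0498 (SE), with an interval from -0.114 to 0.0815 that excludes the size of the difference in Kcnj10 or Slc4a4. Slc1a3, the second astrocyte glutamate transporter, ran from 1358 to 1789 (median 1589) in Abi3_WT and was 1252, 1397, 1621, 1457 and 1430.5 in Abi3_KO. 1 Abi3_KO animal lay below the Abi3_WT range, and the log2 fold change was -0.15 ± 0.0789 (SE, interval -0.309 to 0.000632).

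Glul, which joins glutamate and ammonia into glutamine, had 3366 to 4975 normalized counts in Abi3_WT (median 4198) and 3419, 3831, 4209, 4555 and 4518 in Abi3_KO animals, with a log2 fold change of -0.03 ± 0.0938 (SE, interval -0.21 to 0.157). The Abi3_KO values fell inside the Abi3_WT range. The last 400 bases of Glul have copies in 2 processed pseudogenes. These are Glns-ps1 (98.0% identical over 400 bases, 2 reads over all animals) and Gm4949 (93.25% identical over 400 bases, 0 reads). Reads that fitted several places equally would have been dropped, and their number was not counted. The level of Glul is therefore less certain than that of the other members. No other member matched another gene at 90% identity over 300 or more bases.

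Gja1, the main connexin of astrocytes, ran from 271 to 449.8 normalized counts in Abi3_WT (median 376) and was 350.3, 394, 341, 306 and 328 in Abi3_KO animals, all inside the Abi3_WT range. Its log2 fold change was -0.09 ± 0.126 (SE, interval -0.341 to 0.154), and with reads outside genes as a covariate it was -0.41 ± 0.22 (SE). Gjb6, its partner in astrocyte gap junctions, ran from 95 to 207 (median 122) and was 72, 143, 111, 149 and 143 in Abi3_KO animals. 1 Abi3_KO animal lay below the Abi3_WT range. Its coefficient of variation was 31.9% in Abi3_WT, the highest of the members there, and 26.2% in Abi3_KO, where that of Kcnj16 was higher (29.0%). Its log2 fold change of -0.10 ± 0.215 (SE) had an interval from -0.518 to 0.326.

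**Figure D1:**
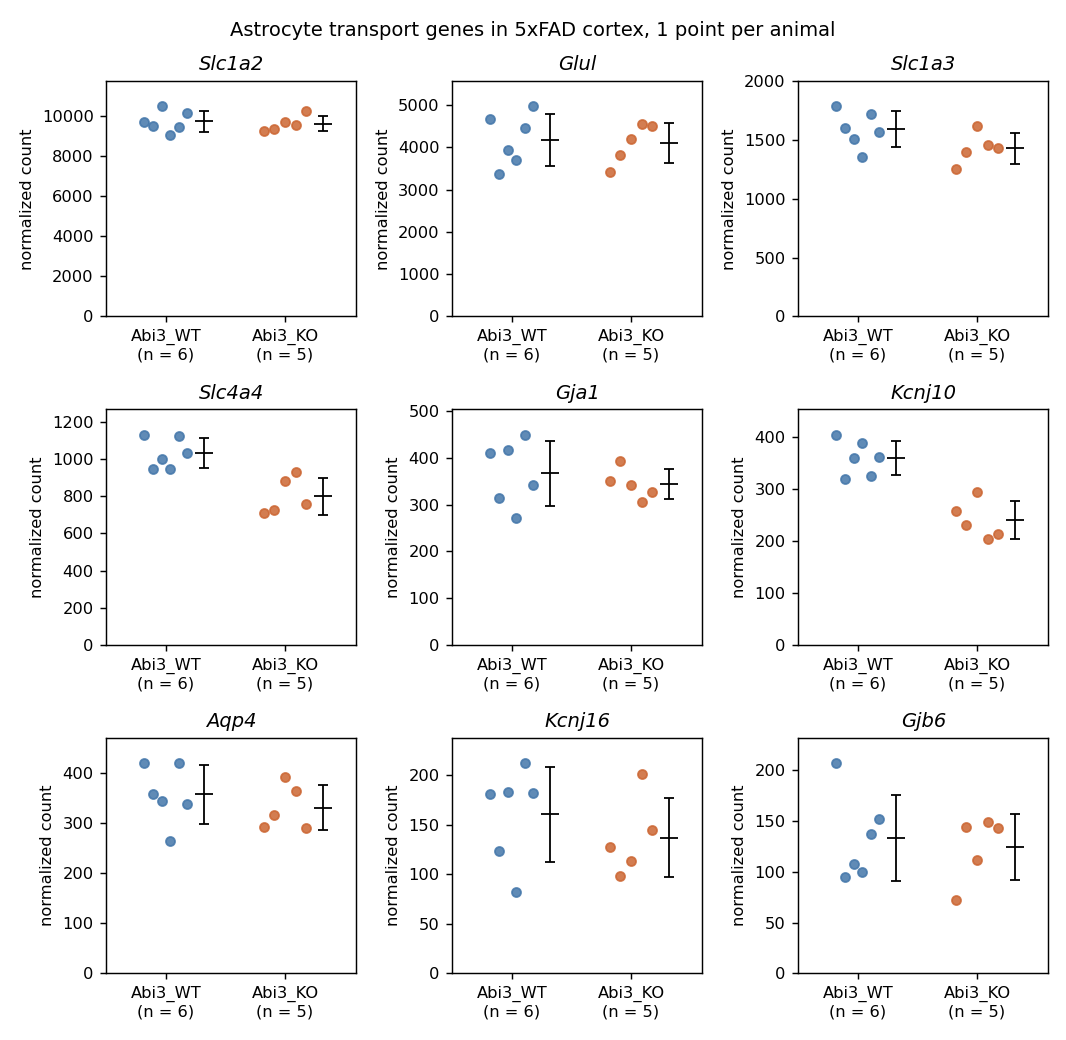
Normalized count (y axis, from 0) of each of the 9 genes in Abi3_WT (6 animals, blue) and Abi3_KO (5 animals, orange) cortices, 1 point per animal, with the mean and SD beside each group. Only in the panels for Kcnj10 and Slc4a4 do all Abi3_KO points lie below all Abi3_WT points.

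Across the whole table, 95 of 17626 genes tested passed the threshold (DESeq2, adjusted p at or below 0.05), a background of 0.539%. 2 of the 9 genes, Kcnj10 and Slc4a4, were among them, both lower in Abi3_KO. The 9 genes all had counts high enough to be given an adjusted p, and among the 6487 such genes 0.540% were called lower in Abi3_KO. Groups that did not overlap, with Abi3_KO lower, were found for the same 2 members, against 0.499% of all genes tested. Because the members were chosen with this contrast known, nothing is read from these shares. The log2 fold change was below 0 in all 9, with a median of -0.112 against -0.00334 over all genes tested, but for Glul, Gjb6, Slc1a2 and Kcnj16 the sign turned under at least 1 alternative processing. With the number of reads outside genes per 100 in genes as a covariate, the log2 fold change of Kcnj10 was -0.59 ± 0.215 (SE) and that of Slc4a4 was -0.16 ± 0.147 (SE), and neither passed the threshold. Leaving out any single animal kept the log2 fold change of Kcnj10 between -0.661 and -0.527 where an adjusted p was given, and that of Slc4a4 between -0.425 and -0.324.

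The 9 genes were then set beside the rest of the transport machinery in 5 lists of other genes, which held 57 tested genes. Of the 57, 39 were given an adjusted p. None was called higher in Abi3_KO and 2 were called lower, both in the amino acid list. Among all 6487 genes given an adjusted p, 0.540% were called lower. The lists were chosen with earlier results known, so nothing is read from this share. Slc38a3, which exports glutamine from astrocytes, ran from 114 to 172 normalized counts in Abi3_WT (median 141) and was 61, 127, 99, 54 and 91 in Abi3_KO animals. 4 of 5 Abi3_KO animals lay below the Abi3_WT range, and the gene fell with a log2 fold change of -0.71 ± 0.201 (SE, DESeq2 adjusted p = 0.0378). Slc25a18, a mitochondrial glutamate carrier, ran from 89.95 to 121 (median 116) in Abi3_WT and was 67, 54, 75, 79 and 84 in Abi3_KO animals, with no overlap, and fell with a log2 fold change of -0.60 ± 0.177 (SE, DESeq2 adjusted p = 0.0488). Abi3_WT replicate 3 and Abi3_KO replicate 4 had 153 and 54 counts of Slc38a3, and 89.95 and 79.1 of Slc25a18. With reads outside genes as a covariate the log2 fold change of Slc38a3 was -1.42 ± 0.347 (SE) and that of Slc25a18 was -0.25 ± 0.321 (SE), and neither passed the threshold. Slc38a3 kept its call without Abi3_WT replicate 4 and without Abi3_KO replicate 2 or 3, in 3 of the 7 fits with an animal left out that gave it an adjusted p, and the adjusted p reached 0.147 in the others. Slc25a18 kept it in 0 of 6 such fits, and edgeR and limma called neither gene.

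In that list 11 of 14 genes had a log2 fold change below 0, with a median of -0.11. Among 10 other genes of potassium handling, pumps, cotransporters and channels, 5 were below 0 and 5 above, with a median of -0.0129. None of the 8 given an adjusted p passed the threshold. Among list genes with a mean of at least 10 counts, the largest differences there were in Slc12a4, a potassium chloride cotransporter (-0.40 ± 0.354, SE), and Atp1b2, the astrocyte sodium pump subunit (-0.23 ± 0.108, SE, DESeq2 adjusted p = 0.342). The list for water and endfoot anchoring had 12 tested genes with a median of -0.00299, and none of the 8 given an adjusted p passed the threshold. Its largest values at such a mean were in Sgcd, of the dystrophin-associated complex (-0.48 ± 0.357, SE), and the chloride channel Clcn2 (0.26 ± 0.278, SE). Of 9 other tested connexin and junction genes, of which 2 were high enough to be given an adjusted p, none passed, with a median of 0.0197 and the largest values at Gjb1 (0.36 ± 0.42, SE) and Gjc1 (0.36 ± 0.441, SE). The 12 tested genes of acid-base and lactate transport had a median of 0.0349, and none of the 9 given an adjusted p passed the threshold. In this list, Slc4a10, a bicarbonate transporter of neurons, averaged 341 ± 35.4 (SD) over 6 Abi3_WT and 421 ± 87.0 over 5 Abi3_KO animals, on the log2 scale a difference of 0.30 ± 0.123 (SE, DESeq2 adjusted p = 0.239).

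Markers of astrocytes themselves were examined the same way. Of 24 identity genes, 19 had a log2 fold change below 0, with a median of -0.131, and none of the 20 given an adjusted p passed the threshold. 5 of the 24 had an unadjusted p under 0.05, all lower in Abi3_KO, where 1512 of all 17626 genes tested had such a p in either direction. The largest values were in Fgfr3, a growth factor receptor of astrocytes (-0.42 ± 0.133, SE, DESeq2 adjusted p = 0.0871), and Acsbg1, a fatty acid ligase (-0.38 ± 0.124, SE, DESeq2 adjusted p = 0.103). The summed level of the list differed by -7.49% in Abi3_KO, with overlapping groups. The 13 tested genes of reactive astrocytes had a median of 0.0809, and none of the 3 given an adjusted p passed the threshold. 2 of the 13 had an unadjusted p under 0.05, both higher in Abi3_KO. Their sum was 19.3% higher in Abi3_KO, with overlapping groups. Among those with a mean of at least 10 counts, the largest values were at the interferon-induced Gbp2 (1.08 ± 0.437, SE) and at Ggta1 (0.68 ± 0.489, SE), both of low count. Oligodendrocytes also use Kcnj10. Their 12 markers all had a log2 fold change above 0, with a median of 0.278, and their sum ran from 8332 to 11434 in Abi3_WT and from 9249.9 to 12660.0 in Abi3_KO animals. 3 of the 12 had an unadjusted p under 0.05, all higher. 1 of the 10 given an adjusted p was called higher, where 60 of all 6487 such genes were. It was the myelin junction gene Cldn11 (242 ± 48.1, SD, n = 6, and 346 ± 29.1, SD, n = 5; log2 fold change 0.53 ± 0.13, SE, DESeq2 adjusted p = 0.0106), which is named after its value was seen. The Cldn11 value was 270.9 in Abi3_WT replicate 3 and 368 in Abi3_KO replicate 4. Cldn11 missed the threshold with reads outside genes as a covariate (0.61 ± 0.242, SE, DESeq2 adjusted p = 1.0) and was given no adjusted p without Abi3_WT replicate 2. Of the lists for other cells, 8 of 10 neuron genes lay above 0, 3 with an unadjusted p under 0.05, with a sum 8.46% higher. So did 7 of 8 microglia genes (sum 8.59% higher) and 5 of 6 genes of oligodendrocyte precursors (7.92% higher). Below 0 lay 6 of 9 endothelial and mural genes, 1 with such a p (sum 1.83% higher), and 6 of 6 striatum genes (difference in the sum of -13.7%). The sum of 6 choroid plexus and ependyma genes ran from 87.6 to 3511.7 in Abi3_WT and from 97.0 to 2334 in Abi3_KO animals. None of the genes of these lists that were given an adjusted p passed the threshold. The summed levels of each of these lists overlapped between genotypes. The part of cell composition in the difference in Kcnj10 was not tested.

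**Figure D2:**
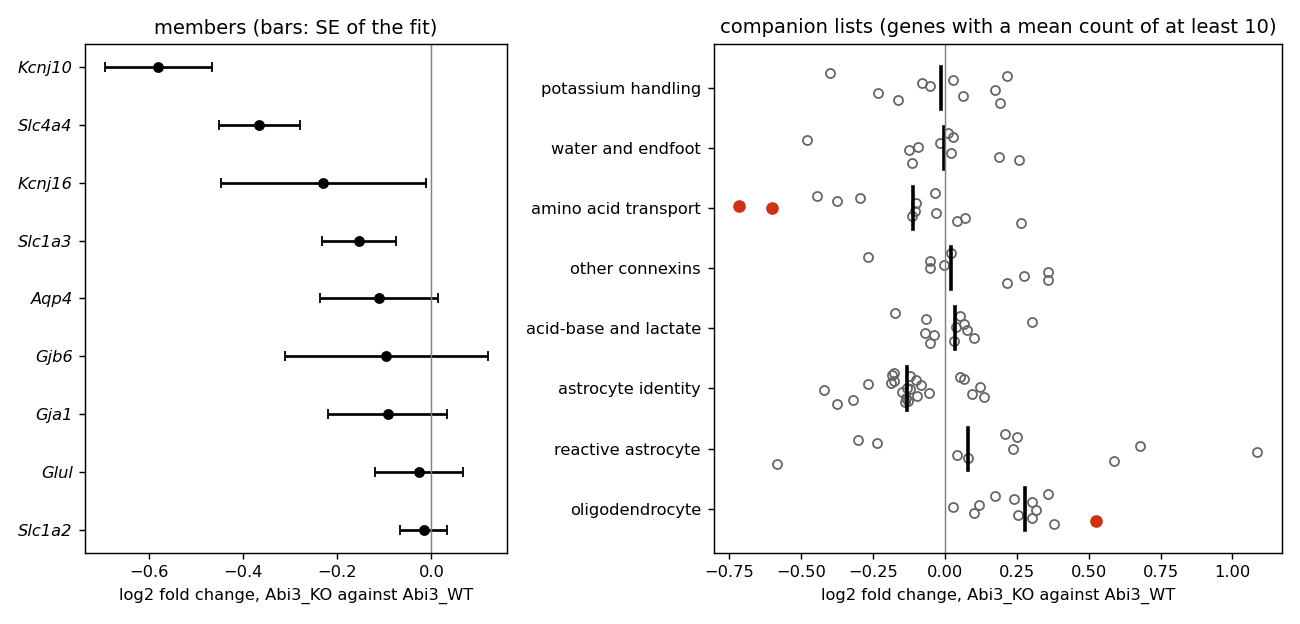
Log2 fold changes of Abi3_KO against Abi3_WT (x axes) for the 9 genes with the SE of the fit (left) and for genes of 8 lists whose mean over the animals reached 10 (right, 1 circle per gene, the black bar at the median of all tested genes of the list, filled circles past the threshold). Kcnj10 at -0.58 and Slc4a4 at -0.37 stand apart on the left, and the filled circles on the right are Slc38a3, Slc25a18 and Cldn11.

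As a further description, each gene was divided by the sum of the 24 identity genes in the same library. This uses the same contrast that was known when the members were chosen, and the identity sum itself differed by only -7.49%. It is therefore no test of the difference in Kcnj10. Kcnj10 then had 23.1 to 35.3 counts per 1000 identity counts in Abi3_WT animals and 21.8, 19.0, 22.7, 16.8 and 18.7 in Abi3_KO replicates 1 to 5. The groups did not overlap on this scale either, and the means, 27.7 ± 4.05 (SD) over 6 and 19.8 ± 2.43 over 5 animals, differed by -28.6%. Slc4a4 had 75.97 to 86.5 per 1000 in Abi3_WT and 60.0, 59.8, 68.1, 76.3 and 66.6 in Abi3_KO animals, a difference in means of -16.4%, and here replicate 4 lay inside the Abi3_WT range. The other 7 members overlapped, with differences in the mean from -6.03% for Kcnj16 to 6.42% for Glul. Aqp4 differed by 0.199% on this scale, with 27.2 ± 2.43 (SD, n = 6) and 27.3 ± 2.62 (SD, n = 5) counts per 1000.

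**Figure D3:**
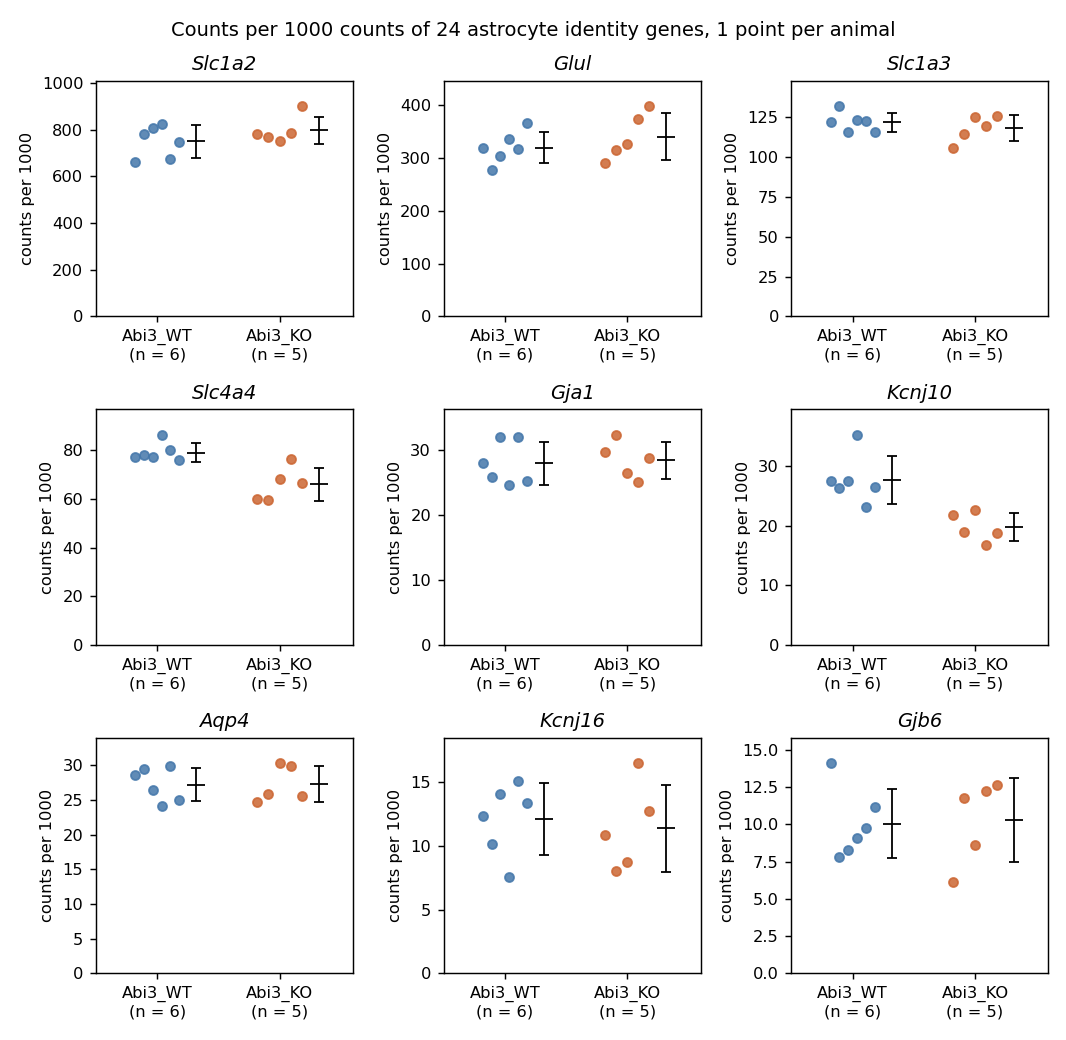
Counts of each of the 9 genes per 1000 counts of 24 astrocyte identity genes (y axis, from 0), 1 point per animal, with the mean and SD beside each group (Abi3_WT, 6 animals, blue; Abi3_KO, 5 animals, orange). Kcnj10 alone keeps all Abi3_KO points below all Abi3_WT points.

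How the members varied from animal to animal within a genotype was not used in choosing them. After subtracting each genotype's mean from log2(normalized count + 1), 32 of the 36 pairs of members had a positive Pearson correlation over the 11 animals, with a median r of 0.456. The points share library depth and the composition of the dissected tissue. Aqp4 and Slc1a3 varied most closely together (r = 0.912, exact permutation test within genotype, two-sided, p = 0.000347, adjusted p = 0.0125 over 36 pairs; Spearman's rho = 0.864, p = 0.00228, adjusted p = 0.0821). The relation was present in both groups (r = 0.975 in 6 Abi3_WT and 0.814 in 5 Abi3_KO animals) and remained at r = 0.832 without the 2 animals farthest from the median. Gjb6 and Glul followed (r = 0.83, exact permutation p = 0.0034, adjusted p = 0.0472; rho = 0.782, p = 0.00598, adjusted p = 0.0883; r = 0.803 without 2 animals), then Aqp4 and Slc4a4 (r = 0.804, exact permutation p = 0.00394, adjusted p = 0.0472; rho = 0.682, p = 0.04, adjusted p = 0.237; r = 0.829 without 2 animals). By Spearman's rho no pair passed after adjustment. The number of pairs past the threshold fell from 3 to 0 without Abi3_WT replicate 1, 4 or 5 or Abi3_KO replicate 3 or 4, and to 1 without Abi3_WT replicate 3 or 6 or Abi3_KO replicate 1 or 5.

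The 4 negative pairs all involved Kcnj10. Its 8 correlations with the other members ran from -0.386 with Kcnj16 to 0.0616 with Slc1a3, none past the threshold, and its correlation with Slc4a4, the other gene that did not overlap between genotypes, was 0.018 (rho = 0.0364, exact permutation p = 0.965 for r and 0.933 for rho, adjusted p = 0.965 and 0.988; r = 0.0479 without 2 animals). Whether its correlations differed from those of the other members was not tested. Abi3_KO replicate 4 had the lowest Kcnj10 and the highest Slc4a4 of its group.

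**Figure D4:**
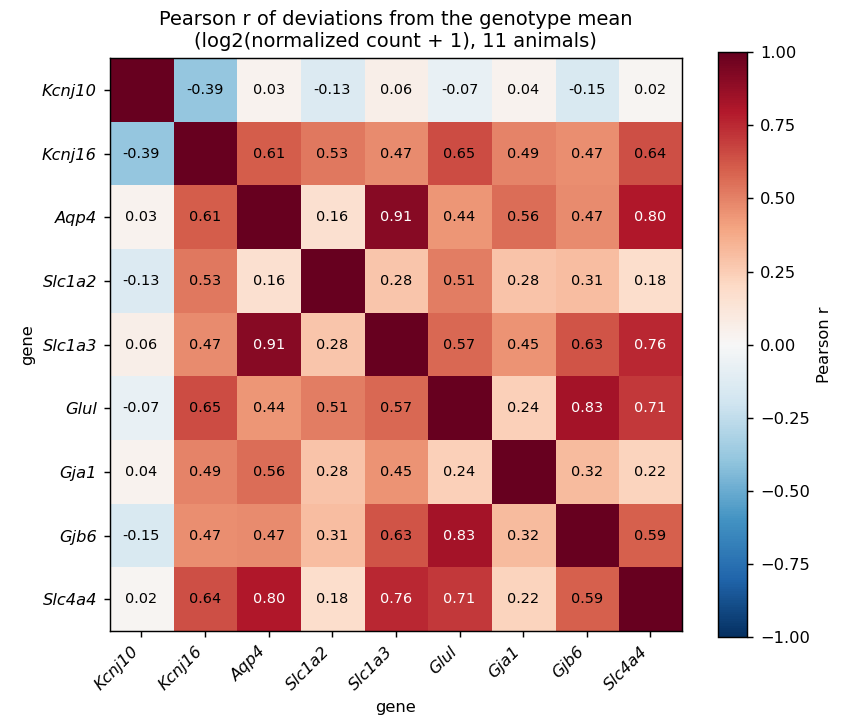
Pearson r (color and number) between the deviations of each pair of the 9 genes from their genotype mean, on log2(normalized count + 1) over 11 animals. Over both genotypes together, apart from Kcnj10, whose row lies between -0.386 and 0.0616, all pairs are positive, up to 0.912 for Aqp4 and Slc1a3. Within Abi3_KO animals alone, pairs of Gja1 were negative as well.

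Genes whose levels followed Kcnj10 over all 11 animals were ranked among 7779 others whose mean level reached 50 normalized counts. This likeness includes the difference between genotypes and is given as a description. Highest were Lrrc7, a scaffold of the postsynaptic density (r = 0.979, rho = 0.945), Kcnk2, a leak potassium channel (r = 0.963, rho = 0.907), Pabpn1, the nuclear poly(A)-binding protein (r = 0.934, rho = 0.945), Sap130, of a corepressor complex (r = 0.899, rho = 0.891), and 2900052N01Rik (r = 0.883, rho = 0.809). None of these 5 passed the threshold between genotypes. Their log2 fold changes were -0.26, -0.31, -0.51, -0.46 and -0.43. By deviations from the genotype mean the order was Lrrc7 (r = 0.902), Sap130 (r = 0.887), the autophagy enzyme Atg3 (r = 0.87), the centromere protein Cenpb (r = 0.869) and Ppp1r12c, a phosphatase subunit (r = 0.854). Both rankings take the highest of 7779 values over 11 animals, and no r in them was tested against chance. Among the members, Slc4a4 ranked 92 of 7779 over all animals (r = 0.725) and 3577 by deviations, and Slc1a3 ranked 640 (r = 0.485) and 3198. Aqp4, Gja1, Slc1a2, Kcnj16, Gjb6 and Glul ranked between 1905 and 3401 over all animals.

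Kcnj10 lies at chr1:172168765-172201652 on the plus strand of GRCm39, with Glul on the same chromosome at chr1:153775690-153785469. Kcnj16 (chr11:110858843-110927617) shares chromosome 11 with Abi3 (chr11:95720900-95733302). The other members lie at chr5:89034345-89387514 (Slc4a4), chr18:15522451-15544039 (Aqp4), chr2:102488574-102621129 (Slc1a2), chr15:8663604-8741595 (Slc1a3), chr10:56253241-56278609 (Gja1) and chr14:57360757-57371087 (Gjb6). Within 250 kb of Kcnj10, 9 other genes with a mean of at least 10 normalized counts were examined. None of the 9 passed the threshold or had an unadjusted p under 0.05, and their log2 fold changes ran from -0.14 to 0.48. Its nearest counted neighbor upstream, Kcnj9, another inward rectifier channel, 5197 bases away, had -0.08 ± 0.117 (SE), with 439 ± 81.7 (SD, n = 6) and 414 ± 19.5 (SD, n = 5) normalized counts. Pigm, 2461 bases away on the other side, had 0.07 ± 0.299 (SE).

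**Figure D5:**
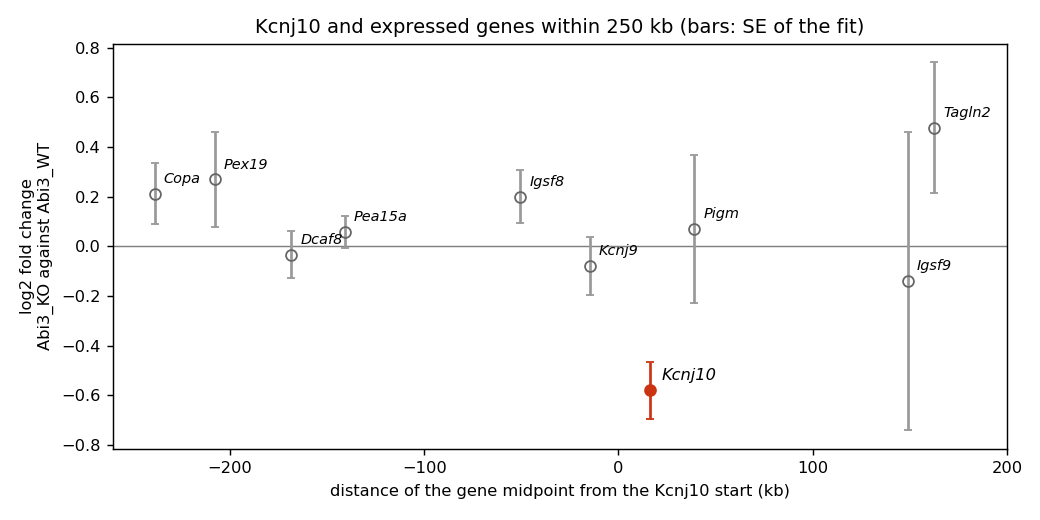
Log2 fold change of Abi3_KO against Abi3_WT with the SE of the fit (y axis) for Kcnj10 (filled) and 9 counted genes around it (open), by the distance of the gene's midpoint from the start of Kcnj10 in kb (x axis). Kcnj10 is at -0.58, while the open points run from -0.14 to 0.48.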

How the data were processed

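Libraries were made with the QuantSeq 3′ kit, which primes on the poly(A) tail, from cortical RNA of 11 mice, with 1 library for each. Adapters and poly(A) stretches were removed by the authors, who aligned single-end reads with STAR (version 2.7.3a) to GRCm39, and counted uniquely placed reads per gene and strand with HTSeq (version 0.9.1). The deposited values are raw counts without normalization. No collapse of PCR copies is stated, so counts are reads, not molecules. Depth is given in the report, and intervals there come from the fit. The 53700 identifiers were named from a later GENCODE annotation of GRCm39, to which 52610 matched.

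The fit was made with DESeq2 (version 1.42.0, R version 4.3.3), after the study's own methods, with genotype as the only term. A minimum of 10 reads over all animals was required to fit a gene and a mean level of 1.5 normalized counts to report it. Adjustment followed Benjamini and Hochberg, with the threshold set at 0.05. DESeq2 gave no adjusted p under a mean of 70.4 counts. Intervals on log2 fold changes are 1.96 standard errors either side. The members, lists and tests were chosen with earlier results of these data known. The naming rule was the 9 members, in each list of other genes those past the threshold and the 2 with the largest absolute log2 fold change at a mean of at least 10, the 5 genes most like Kcnj10 by either measure, counted genes within 250 kb of it, and Abi3. Alternatives were edgeR (version 4.0.16), limma voom (version 3.58.1), TMM size factors, other count filters, reads outside genes as a covariate, thinning to the smallest library, the replicate number as a block, and leaving out each animal. The correlations between members and the order of filter and adjustment were chosen after seeing the data. Within-genotype correlations were tested over all 86400 reorderings of animals within genotype. Last bases of transcripts were matched with BLAST (version 2.17.0). Fits were tested on simulated data. No 2 libraries of a group agreed within sampling noise (chi-square per degree of freedom at least 4.33 over 25 pairs). Some genes that the naming rule selects are not reported here.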

Additional observations from a re-analysis of the deposited data

How the results depend on the processing

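Kcnj10 stayed lower in every alternative that was run, with log2 fold changes from -0.66 to -0.53, and passed the threshold in all but the covariate fit, except that without Abi3_WT replicate 2 it was given no adjusted p. Slc4a4 stayed lower too and missed the threshold in edgeR (adjusted p = 0.0646) and in the covariate fit (log2 fold change -0.16). The number of members past the threshold was 1 in edgeR, 0 with the covariate, and 1 to 2 when an animal was left out. Genes past the threshold numbered 37 in edgeR, 21 in limma, 57 without independent filtering, 3 with the covariate, and 46 to 120 with an animal left out. Companion genes are those of 7 lists, the 5 transport lists and the 2 astrocyte lists, without the oligodendrocyte list. Those past the threshold numbered 0 in edgeR, limma, the covariate fit and without independent filtering. They numbered 1 with TMM factors, no filter on low counts, thinned libraries or filtering before the adjustment, and 0 to 3 with an animal left out. Cldn11, of the oligodendrocyte list, passed in edgeR, limma and without independent filtering. Signs turned with the covariate for Kcnj16 (0.0392), Gjb6 (0.271) and Glul (0.179), without Abi3_WT replicate 1 for Gjb6 (0.0713) and Glul (0.00779), without Abi3_WT replicate 3 for Slc1a2 (0.00787), without Abi3_WT replicate 6 for Glul (0.0295), and without Abi3_KO replicate 1 for Gjb6 (0.0501) and Glul (0.0334) (cause not tested). The covariate also moved Gja1 to -0.414, Slc38a3 to -1.42 and Slc25a18 to -0.251. With an animal left out, Gjb6 ran from -0.178 to 0.0713, Glul from -0.0817 to 0.0334 and Slc1a2 from -0.0375 to 0.00787. The split of higher against lower calls was 60 to 35 in DESeq2, 17 to 20 in edgeR, 11 to 10 in limma and 29 to 28 without independent filtering. Of the 5 genes most like Kcnj10, 2 remained by deviations from the genotype mean and 2 to 5 with an animal left out. Correlated pairs of members numbered 0 to 3, and the difference of Kcnj10 relative to identity genes ran from -31.2% to -24.5%.

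The replicate numbers do not pair the animals: same-numbered animals deviated together with a mean correlation of 0.0399 against -0.00798 for other pairs. With that number as a block, over replicates 1 to 5 of each genotype, 33 genes, 2 members and 0 genes of the 7 companion lists passed the threshold. Cldn11, outside those lists, passed it with a log2 fold change of 0.576. In this fit Kcnj10 stood at -0.59, Slc4a4 at -0.37, and Glul turned to 0.0322. As few as 69 reads stood behind a value of Gjb6, and thinned to the smallest library its standard error was 0.208 where it had been 0.215.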
